A study of Mus musculus with 45 samples.

Results

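Remote intergenic REV-ERBα peaks are the places in the mouse liver genome where the receptor was found far from any protein-coding gene. They were taken from the peak list of zeitgeber time 10 (ZT10, hours after lights on) as every peak on chromosomes 1 to 19 whose summit lay outside all protein-coding gene spans and more than 50 kb from any protein-coding gene end. Of 27622 ZT10 peaks on these chromosomes, 2921 met the rule, which is 10.6% (95% exact Clopper-Pearson interval 10.2 to 10.9). Of the other 24701, 8260 were intergenic but within 50 kb of a gene end and 16441 lay inside gene spans. The choice rested on position, not on the strength of a peak.

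The samples were livers of mice with the genotype REV-ERBa3HA/3HA, in which both copies of the receptor gene carry an HA tag, given no AAV vector and immunoprecipitated with anti-HA beads. There were 4 such samples at ZT22 and 4 at ZT10, and per the labels the authors made 1 peak list from all 4 of a time, so no value below has a spread between animals and no p-value was computed. The labels give neither age nor sex, and every liver held the tag. The untagged B6-WT liver of the series was not analysed here, so whether a remote peak depends on the tag was not tested. Intervals are exact (Clopper-Pearson for shares, Poisson for counts) and cover counting error only, and differences between classes of peaks below are descriptions of this list.

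REV-ERBα, the product of Nr1d1, is a nuclear receptor that lacks the activating helix of its relatives and represses transcription with the NCOR1 and HDAC3 corepressors. It binds the half-site AGGTCA, preferably behind an A/T-rich flank, where it competes with the activating ROR receptors, and it links the circadian clock to lipid and glucose metabolism in liver. Its level in liver is high late in the light phase and low late in the dark phase. Much of its binding lies at enhancers, which can act on genes over long distances, so the nearest gene named for a peak below is a place on the map and not a target.

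A genome sequence was not used here, so the sequence under most remote summits could not be read. RefSeq start windows, which run from 250 bases before to 50 bases after an annotated start, gave sequence at 53 remote peaks whose summit fell inside the window of a non-coding gene. The windows of the 5 such peaks of highest fold are shown because they put letters under some of the strongest remote summits. They belong to the long non-coding RNA genes Gm34991 (chr13:46021048-46021347, plus strand, near Atxn1), Gm36680 (chr3:38151656-38151955, plus strand, near Ankrd50), Gm33459 (chr9:74528637-74528936, minus strand, near Wdr72), 4833411C07Rik (chr8:10899672-10899971, plus strand, near Irs2) and Gm35291 (chr10:23711438-23711737, minus strand, near Rps12), in build GRCm38.p6, read 5′ to 3′ along the gene. Capitals mark AGGTCA on either strand, which reads TGACCT when it lies on the opposite one.
Gm34991: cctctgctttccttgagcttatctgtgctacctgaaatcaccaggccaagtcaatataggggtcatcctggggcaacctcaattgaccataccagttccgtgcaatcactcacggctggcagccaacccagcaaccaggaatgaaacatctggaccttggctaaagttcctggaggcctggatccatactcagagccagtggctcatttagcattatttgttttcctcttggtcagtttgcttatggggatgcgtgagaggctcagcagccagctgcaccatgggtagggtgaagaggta
Gm36680: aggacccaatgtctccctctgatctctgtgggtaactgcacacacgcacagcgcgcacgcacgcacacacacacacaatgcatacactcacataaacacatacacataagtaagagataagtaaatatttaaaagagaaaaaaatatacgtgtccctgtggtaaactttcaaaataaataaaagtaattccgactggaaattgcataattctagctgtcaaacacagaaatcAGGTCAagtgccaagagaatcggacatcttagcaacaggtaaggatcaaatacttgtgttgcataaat
Gm33459: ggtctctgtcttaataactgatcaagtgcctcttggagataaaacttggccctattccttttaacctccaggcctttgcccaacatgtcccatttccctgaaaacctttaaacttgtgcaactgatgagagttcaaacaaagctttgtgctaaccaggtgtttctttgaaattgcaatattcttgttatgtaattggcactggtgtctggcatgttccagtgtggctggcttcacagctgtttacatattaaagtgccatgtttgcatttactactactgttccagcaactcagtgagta
4833411C07Rik: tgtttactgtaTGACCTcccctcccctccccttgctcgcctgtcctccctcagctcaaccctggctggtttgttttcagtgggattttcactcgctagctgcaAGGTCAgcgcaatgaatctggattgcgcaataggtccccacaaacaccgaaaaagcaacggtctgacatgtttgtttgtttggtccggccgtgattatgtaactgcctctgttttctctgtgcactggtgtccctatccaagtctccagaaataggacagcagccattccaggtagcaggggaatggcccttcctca
Gm35291: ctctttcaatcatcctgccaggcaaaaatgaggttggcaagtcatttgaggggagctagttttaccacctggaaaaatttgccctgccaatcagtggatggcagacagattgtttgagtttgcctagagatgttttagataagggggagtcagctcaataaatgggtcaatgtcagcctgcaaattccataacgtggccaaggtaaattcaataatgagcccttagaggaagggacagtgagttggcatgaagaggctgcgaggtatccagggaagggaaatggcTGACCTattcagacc

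The fold, the ratio of the summit to its local background, was 40.9 at Gm34991, 38.1 at Gm36680, 32.7 at Gm33459, 30.8 at 4833411C07Rik and 26.7 at Gm35291. The window of Gm36680 had 1 AGGTCA, 39 bases from the summit base, and that of 4833411C07Rik had 2, the nearer of them 188 bases away. The window of Gm35291 had 1, 185 bases from the summit, and it was the one of the 5 windows in which the half-site was preceded by T (TAGGTCA). The windows of Gm34991 and Gm33459 had no exact match, which says only that these letters are not in those 300 bases. Over all 55 windows that held a remote summit, 19 contained AGGTCA on either strand (34.5%, interval 22.2 to 48.6). The share was 22.1% of the 231 windows of remote non-coding genes anywhere under a remote peak, 19.3% of the 3043 with no ZT10 peak and 16.3% of all 31363 windows on chromosomes 1 to 19. TAGGTCA, which contains AGGTCA, was in 3 of the 55 (5.45%, interval 1.14 to 15.1), against 3.71% of those with no peak and 2.63% of all windows. A direct repeat with a spacer of any 2 bases, AGGTCANNAGGTCA, was in 0 of the 55 (interval up to 6.49%) and in 3 of all 31363. Windows of the same gene overlap, and no other motif was searched for.

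Remote peaks were stronger than the others. Their median fold was 7.54 (quartiles 5.16 and 12.3), against 7.04 for intergenic peaks within 50 kb and 6.65 for peaks inside gene spans, and the median over all 24701 other peaks was 6.76. A fold of at least 10 was reached by 1014 remote peaks (34.7%, interval 33.0 to 36.5) and by 6493 other peaks (26.3%, interval 25.7 to 26.8), and the share over all peaks of chromosomes 1 to 19 was 27.2%. At a fold of at least 30 there were 50 remote peaks (1.71%, interval 1.27 to 2.25) and 192 others (0.777%, interval 0.672 to 0.895). At both folds the interval of the remote share lay above that of the other peaks, with each peak counted as independent. The 1442 intergenic peaks at 25 to 50 kb had a median fold of 7.59. A fold of at least 10 was reached by 35.7% of them (interval 33.2 to 38.2). The greater strength was thus not particular to peaks beyond 50 kb.

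**Figure D1:**
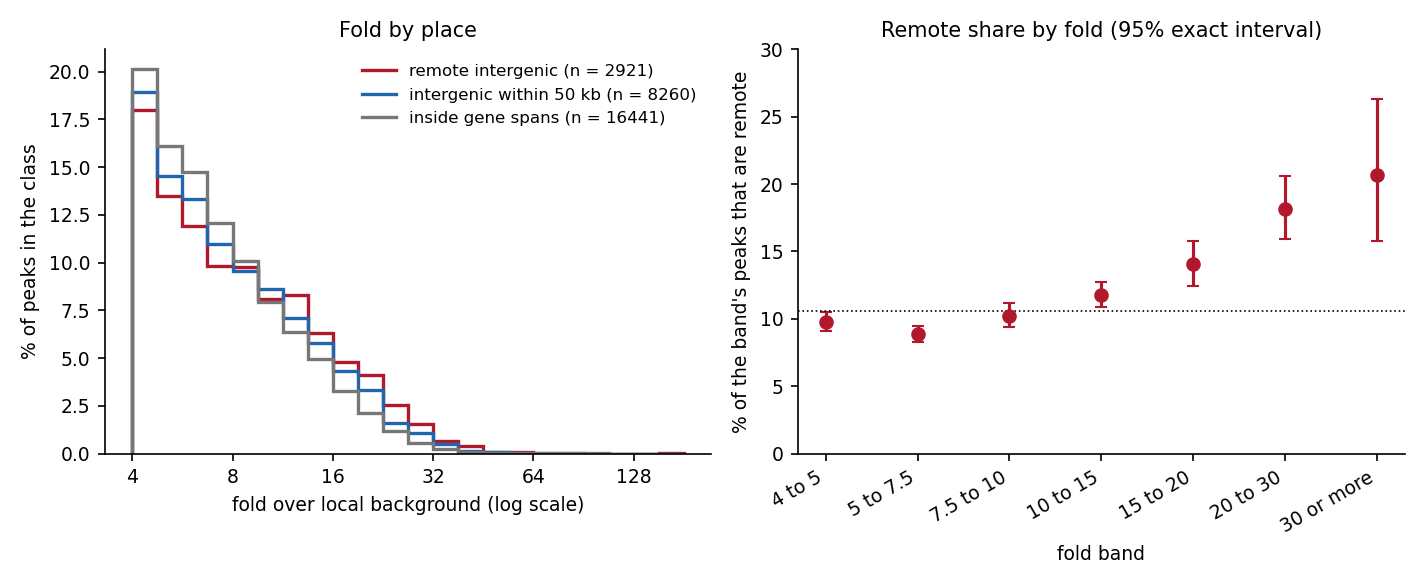
Left, the percentage of peaks of each class (y axis) by fold over local background (x axis, log scale) for remote intergenic peaks, intergenic peaks within 50 kb and peaks inside gene spans. Right, the percentage of all peaks in a fold band that are remote, with 95% exact intervals and a dotted line at the share over all peaks, 10.6%; the share is 8.88% at folds of 5 to 7.5 and 20.7% at 30 or more.

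Read the other way, the remote share rose with strength from a fold of 7.5 upward. It was 9.78% of the 6679 peaks with a fold of 4 to 5 and 8.88% of those with 5 to 7.5, then 10.2% (7.5 to 10), 11.8% (10 to 15), 14.1% (15 to 20), 18.2% (20 to 30) and 20.7% of the 242 peaks with 30 or more, where the interval ran from 15.7 to 26.3. Of the 100 peaks of highest fold 23 were remote, and of the 1000 of highest fold 188 were. The plot of fold by place shows both the longer upper tail of remote peaks and the climb of their share.

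Remote peaks were also narrower. Their median width was 1495 bp, against 1710 bp for the others, although width went with fold in this list (Spearman's rho across remote peaks 0.81, a description over peaks of 1 library pool). The remote median was also the lower one at matched fold. Median widths were 740 bp for remote and 871 bp for other peaks at folds of 4 to 5, 1311 bp for remote and 1644 bp for other peaks at 5 to 10, 2498 bp for remote and 3329.5 bp for other peaks at 10 to 20, and 3941 bp for remote and 5044 bp for other peaks at 20 or more. By distance, and not matched for fold, the lower width was seen only beyond 100 kb. Medians were 1677 bp at 50 to 75 kb and 1696 bp at 75 to 100 kb, beside 1684 bp for intergenic peaks at 25 to 50 kb. They were 1495 bp at 100 to 200 kb, 1315 bp at 200 to 500 kb and 1000 bp beyond 1000 kb. Widths of 8 kb or more were found at 37 remote peaks (1.27%) and 684 others (2.77%). The least width in the list, 200 bp, was found at 38 remote peaks (1.30%) and 91 others (0.368%).

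**Figure D2:**
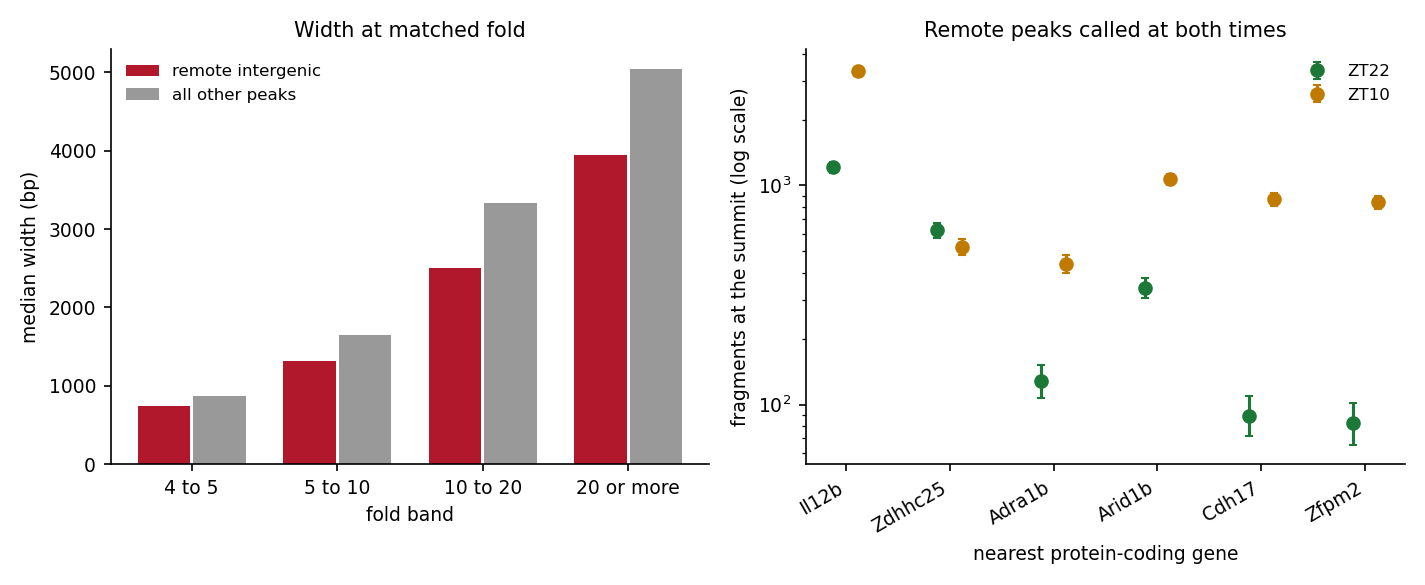
Left, median width in bp (bars from 0) of remote and of all other ZT10 peaks in 4 fold bands; the remote bar is the lower one in each band, with 3941 against 5044 bp at a fold of 20 or more. Right, fragments at the summit (log scale) with 95% Poisson intervals at ZT22 and at ZT10 for the 6 remote peaks overlapped by a ZT22 peak, named by their nearest gene; the Zdhhc25 site alone has the higher value at ZT22.

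The 5 widest remote peaks had very different folds. The widest, 15795 bp, lay 157354 bp from Ppp1r3b, which encodes a glycogen-targeting subunit of protein phosphatase 1, on chromosome 8 between 35204919 and 35220713, and had a fold of 29.9. Next came peaks of 14412 bp near Irf2bp2 (fold 27.6), 14137 bp near the phosphate transporter gene Slc34a2 (40.2), 13132 bp near the phosphatase gene Ptpn1 (14.02) and 11975 bp near Lpp (17.7).

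The strongest remote peak was the strongest of the whole list. Its interval on chromosome 11 ran from 44167577 to 44176973, with the summit 226720 bp from the 5′ end of Il12b, a gene for an interleukin subunit. It had a fold of 152.7 and 3321 fragments at its summit (interval 3209 to 3436). The 3 other remote peaks nearest Il12b had folds of 4.06, 5.02 and 4.32. The next strongest remote peak had less than 50% of the value at the leading site. A peak of fold 62.7 lay 111380 bp and one of 42.7 lay 105271 bp beyond the 3′ end of Irs2, an adaptor of the insulin receptor, both with the summit inside the long non-coding RNA gene B930025P03Rik. The stronger of them ran from 10869987 to 10876486 on chromosome 8. A peak 117399 bp from Ust, a sulfotransferase gene, had 56.9, and one 62153 bp from the 3′ end of Nrip1, which encodes a nuclear receptor corepressor, had 53.0.

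The 25 remote peaks of highest fold had folds of 34.9 to 152.7, summits of 756 to 3321 fragments and widths of 2019 to 14137 bp, and 21 genes were nearest to them. Metabolic and transport genes among these were Auh, an enzyme of leucine breakdown (37.4), and Slc34a2. Genes of regulators of transcription were Nrip1, Tbx3, a T-box factor of hepatocytes (39.1 at 332080 bp), Zfpm2, a partner of GATA factors (38.8), and Atxn1 (40.9). Adhesion genes were Cdh17, a cadherin of liver and gut (40.02), Nectin1 (36.6) and Fat1 (34.9). Single peaks lay nearest Dph6 (46.1), Cpne8 (42.3), Gm5148 (42.5), Gm11677 (38.3), Asap1 (36.5) and Stt3b (35.98), and pairs lay nearest 4930591A17Rik (46.9 and 40.3) and Ankrd50 (38.4 and 38.1). Another summit lay within 12500 bp of 12 of the 25, and 7 had their summit inside a long non-coding RNA gene. Over all remote peaks these shares were 48.0% and 25.3%, so neither count sets the 25 apart.

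Distance from genes ran from 50015 bp to 2032669 bp with a median of 118296 bp. Folds were lower farther out. Between 50 and 75 kb the 744 peaks had a median of 8.03, between 100 and 200 kb the 917 had 7.56, between 200 and 500 kb the 635 had 7.31, between 500 and 1000 kb the 128 had 6.12, and beyond that the 33 had 6.03. A fold of at least 10 was reached by 37.9% of the first bin and by 20.3% (interval 13.7 to 28.3) between 500 and 1000 kb. Beyond 500 kb the medians were below the 6.76 of peaks that are not remote. Nearer than the limit, intergenic peaks had a median of 6.44 within 1 kb of a gene end, 7.27 at 1 to 10 kb, 7.41 at 10 to 25 kb and 7.59 at 25 to 50 kb.

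**Figure D3:**
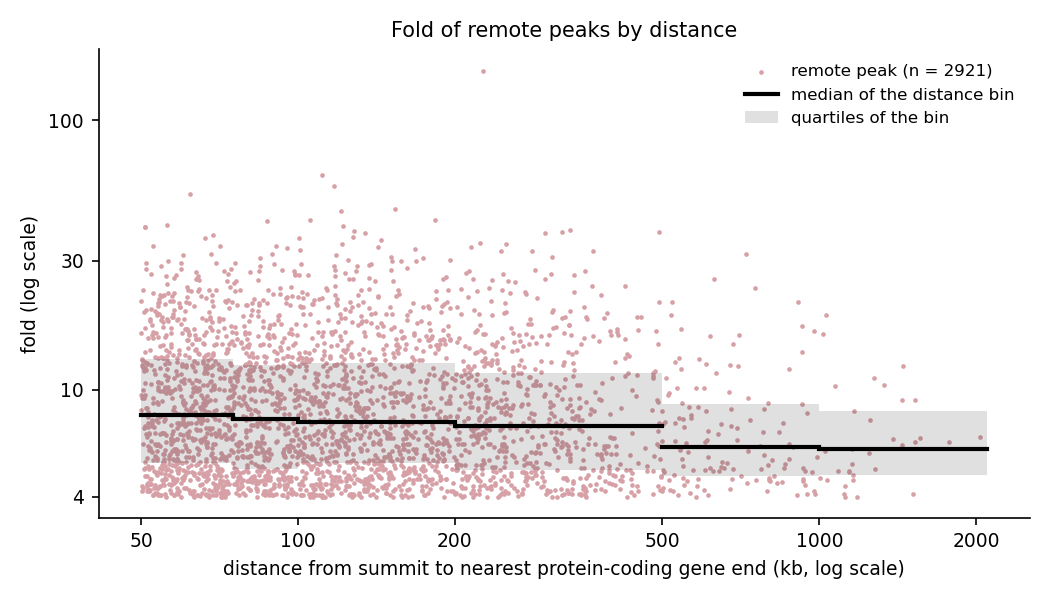
Fold (y axis, log scale) of each of the 2921 remote peaks by the distance from its summit to the nearest protein-coding gene end in kb (x axis, log scale). Black lines are medians and grey bands quartiles of 6 distance bins; the medians run from 8.03 at 50 to 75 kb to 6.03 beyond 1000 kb.

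The 5 farthest peaks were weak to moderate. A peak 2032669 bp from Cdh20 on chromosome 1 had a fold of 6.67, one 1772161 bp from Efna5 had 6.40, 2 near Efnb2 had 6.63 at 1556764 bp and 6.40 at 1524026 bp, and one 1525462 bp from Tenm2 had 9.14. These are genes of a cadherin, 2 ephrins and a teneurin. At the limit itself nothing changed abruptly. The 333 peaks at 50 to 60 kb had a median fold of 7.64 and the 470 at 40 to 50 kb had 7.36. Just beyond it lay peaks near Ipo5 (fold 8.42), Mrtfb (16.3), Egfr (21.4), Arrdc4 (9.52) and Nr5a2 (12.4), and just short of it peaks near Cstad (4.93), Antxr2 (5.24), Sp3 (21.7), Zfp831 (7.27) and Camk2n1 (5.29).

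Remote sequence was thinly bound for its size. The stretches more than 50 kb from genes added up to 862.9 Mb, 35.5% of the chromosome length between the first and last gene, and held 3.37 peaks per Mb (interval 3.25 to 3.50). Intergenic sequence within 50 kb of genes held 14.2 per Mb and gene spans 16.7. By chromosome the remote density ran from 2.169 per Mb on chromosome 14 to 5.93 per Mb (interval 5.24 to 6.68) on chromosome 13, where 20.8% of all peaks were remote.

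Binding was also unevenly spread over that sequence. Of 2495 gaps of more than 100 kb between neighbouring protein-coding genes, 897 held at least 1 remote peak (35.95%). The 191 gaps with 5 or more held 55.4% of the remote peaks in gaps on 13.7% of the remote territory, while gaps with none made up 46.8% of the territory. Longer gaps were emptier for their size, with 9.35 peaks per Mb of territory in gaps of 100 to 200 kb, 6.68 at 200 to 500 kb, 3.85 at 500 to 1000 kb and 1.35 beyond 1000 kb. Longer gaps were less often empty, however. At least 1 remote peak lay in 19.2% of gaps of 100 to 200 kb and in 57.8% of those beyond 1000 kb. Of the 258 gaps beyond 1000 kb, 109 had no remote peak.

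**Figure D4:**
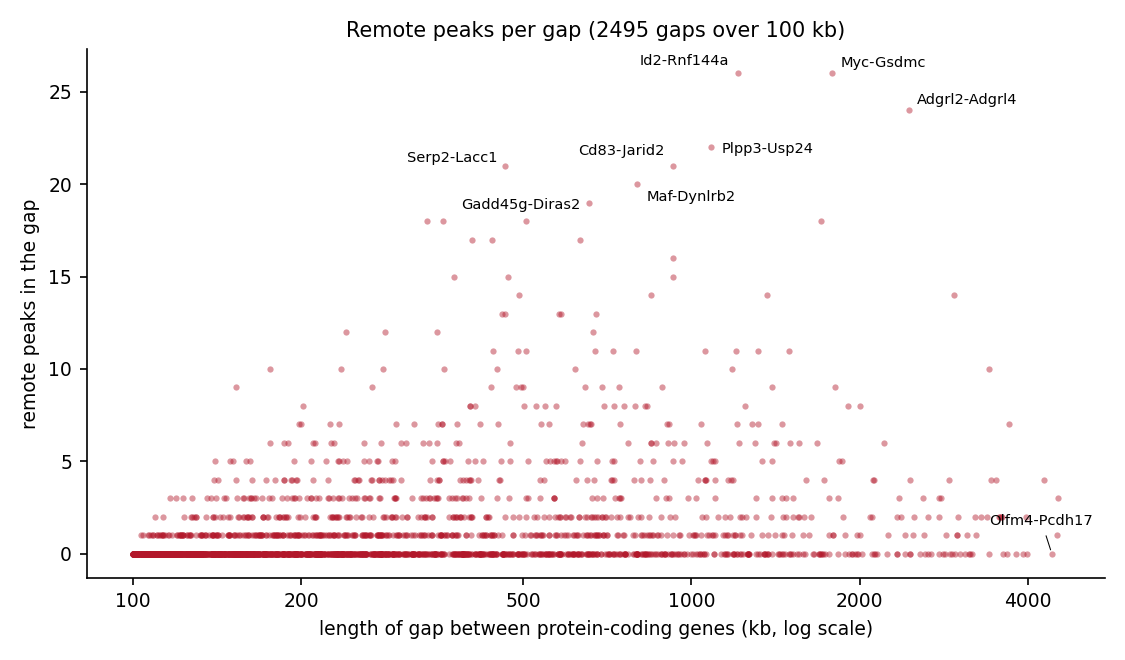
Remote peaks in each of 2495 gaps over 100 kb (y axis) by the length of the gap in kb (x axis, log scale), with the flanking genes of the 8 fullest gaps and of the longest empty one. The Id2-Rnf144a and Myc-Gsdmc gaps hold 26 each, and the 4420 kb gap between Olfm4 and Pcdh17 holds 0.

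The fullest gaps were picked by these counts, so the counts describe them and support nothing further. The gap between Id2, a repressor of helix-loop-helix factors, and Rnf144a held 26 remote peaks in 1211 kb, and that between the growth regulator Myc and Gsdmc also held 26, in 1786 kb. Between Adgrl2 and Adgrl4, genes of adhesion receptors, there were 24, between Plpp3, a lipid phosphatase gene, and Usp24 there were 22, and between Cd83 and Jarid2 and between Serp2 and Lacc1 there were 21 each. The gap between Cebpb, a hepatocyte transcription factor gene, and Ptpn1 was the densest of those with at least 100 kb of remote territory, with 12 peaks at 85.5 per Mb of territory, and the gap between Irf2bp2 and Tomm20 had 18 at 76.1 per Mb. The longest empty gaps lay between Olfm4 and the protocadherin gene Pcdh17 (4420 kb), Tenm3 and Aga (3989 kb), and Lrrc4c and Iftap (3929 kb).

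Remote summits had their nearest neighbouring summit, remote or not, farther away than summits elsewhere had. The next summit of any peak was a median of 13803 bp away, against 8647 bp for intergenic peaks within 50 kb and 8606 bp in gene spans. Within 12500 bp another summit was found for 1401 remote peaks (48.0%, interval 46.1 to 49.8), for 63.2% of nearer intergenic peaks and for 62.4% of peaks in gene spans, and the share over all peaks was 61.1%. Peaks in company were stronger. The 1401 had a median fold of 8.003, while the 426 with no other summit within 100 kb had 6.01, and a fold of at least 10 was reached by 37.97% of the 1401 and 16.2% of the 426.

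Joining remote summits at most 12500 bp apart gave 1568 single peaks, 356 pairs and 175 clusters of 3 or more, which held 641 peaks (21.9%). The largest had 11 peaks in 56.9 kb beyond the 3′ end of Irs2, with folds of 4.05 to 62.7. Clusters are named by the gene nearest to most of their peaks. The next had 9 peaks in 48.0 kb beside Ppara, a nuclear receptor of fatty acid oxidation, with folds up to 14.1. Of the 9, 5 were nearest Ppara and 4 nearest Wnt7b, on the other side of the gap. Then came 8 peaks in 46.0 kb, 479282 bp and more from Rnf144a, with folds up to 21.2. A cluster of 7 peaks in 40.1 kb near Lacc1 reached 26.1, and 6 peaks in 33.0 kb near Acsl1, an acyl-CoA synthetase gene, reached 28.8. The cluster medians were 14.1 at Irs2 and 15.4 at Acsl1, and 5.98 at Ppara and 8.55 at Rnf144a, beside 7.54 over all remote peaks.

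Protein-coding genes nearest to at least 1 remote peak numbered 1129, which is 27.3% of the 4130 genes beside a gap of more than 100 kb or at a chromosome end and 5.46% of the 20665 on chromosomes 1 to 19. Of the 1129, 520 were nearest to 1 peak and 33 to 10 or more, and those 33 took 14.4% of the remote peaks. The nearest gene end was the 5′ end for 54.3% (interval 52.2 to 56.4) of the 2208 remote peaks at genes whose strand was given, and for 66.0% (interval 64.8 to 67.2) of 6447 intergenic peaks within 50 kb.

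The 10 genes with the most were Adgrl2 (25 remote peaks), Myc (24), Pik3r1 (23), Tbl1xr1 (19), Irs2 (17), Plpp3 (16), Gadd45g (15), Id2 (14), Foxo1 (13) and Nrip1 (12), with Rnf144a, Gm46911 and Cd83 also at 12. The order depends on how a peak is given to a gene. When each peak counted for both genes beside its gap, Adgrl2, Myc, Pik3r1 and Id2 (4 of the 10) stayed among the leading 10 genes, and Tbl1xr1, Irs2, Plpp3, Gadd45g, Foxo1 and Nrip1 did not. Among the 10 by nearest end, genes of insulin signalling were Irs2, Pik3r1, the regulatory subunit of phosphoinositide 3-kinase, and Foxo1, the transcription factor that insulin restrains. Tbl1xr1 encodes a subunit of the NCOR corepressor complex with which REV-ERBα acts. Gadd45g is a stress-induced growth arrest gene.

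At Irs2 the 17 peaks lay on both sides of the gene. On the 3′ side there were 12, at 56039 to 129877 bp, and the 4 strongest had folds of 62.7, 42.7, 30.8 and 28.7, while the other 8 had 4.05 to 18.2. On the 5′ side there were 5, at 53599 to 89864 bp, with folds of 8.05, 9.29, 8.19, 14.8 and 15.7. The folds of the 5′ side thus lay within the range of the 3′ side, which held the weakest and the strongest of the 17. The fold of 30.8 belonged to the peak whose summit fell in the start window of 4833411C07Rik, printed above.

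At Foxo1 all 13 peaks lay beyond the 3′ end, at 51300 to 302782 bp. The strongest had a fold of 34.7 at 251136 bp, and folds of 25.3 at 151855 bp, 22.9 at 272552 bp and 20.5 at 177285 bp followed, while the nearest of the 13 to the gene had 4.37. At Tbl1xr1 18 of 19 lay on the 5′ side, with 31.98 at 89197 bp, 25.2 at 140406 bp and 23.4 at 113621 bp, and 1 of fold 16.5 lay 485256 bp beyond the 3′ end. At Pik3r1 the strongest, 31.2, lay 306814 bp beyond the 3′ end.

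At Gadd45g the 15 peaks lay beyond the 3′ end, with folds of 30.7 at 173621 bp, 28.8 at 54710 bp and 26.7 at 305950 bp among others down to 4.24. At Id2 the 14 lay on the 5′ side and 1 stood out, with 25.9 at 136596 bp against 5.25 to 14.8 for the others. Nrip1 had the same shape, with 53.0 at 62153 bp and 4.47 to 11.2 at the other 11. Myc had a strongest peak of 31.8 and Plpp3 one of 18.8.

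**Figure D5:**
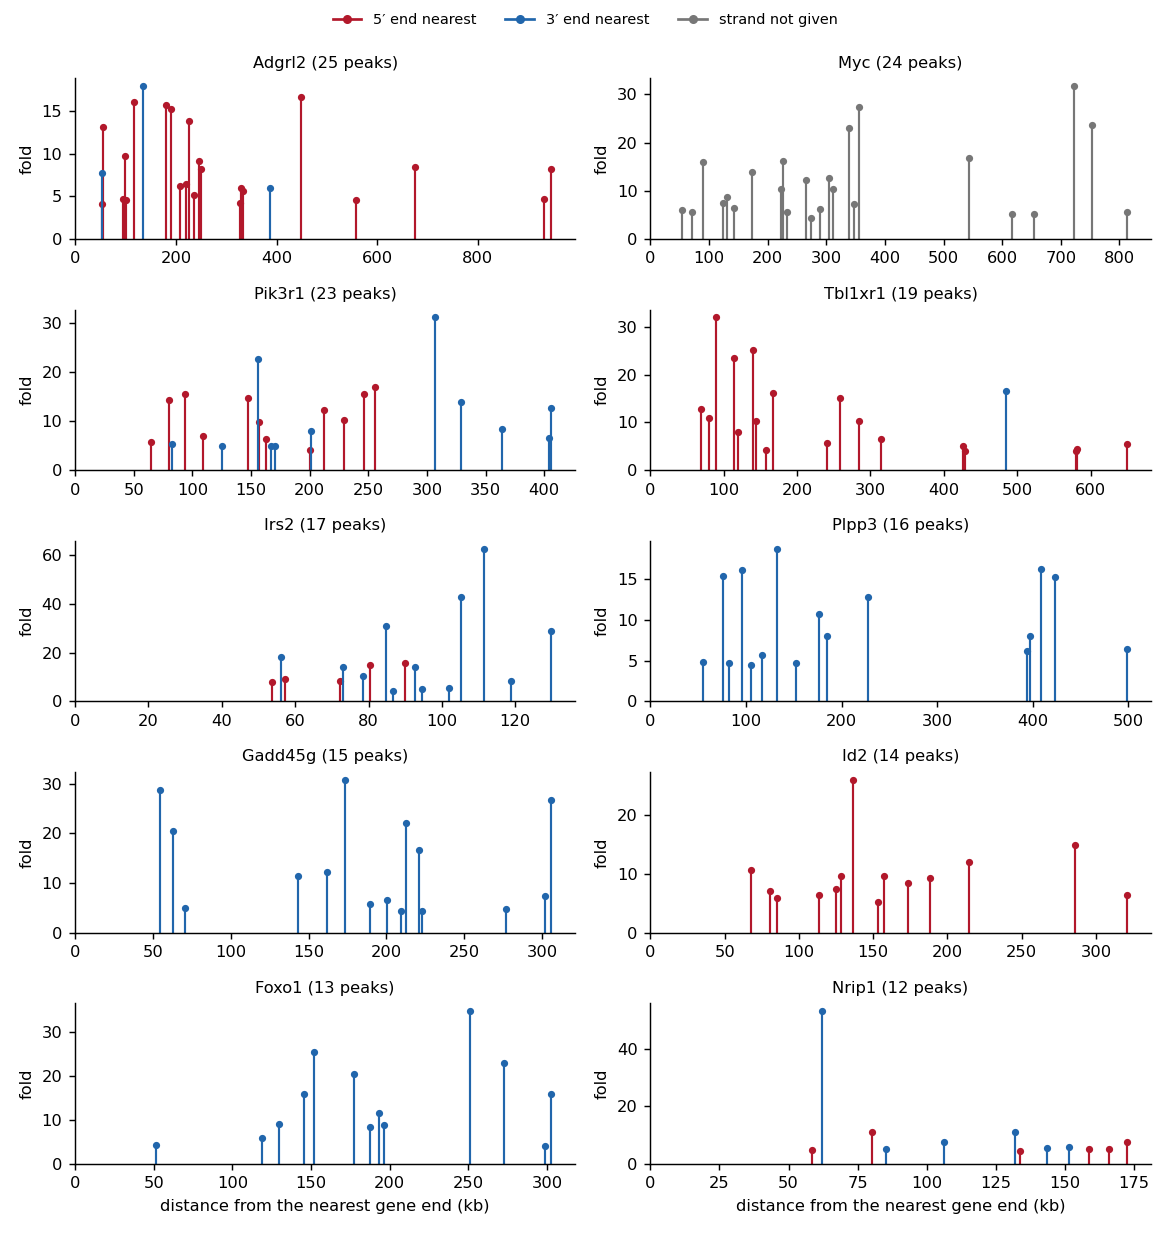
Fold (y axis, from 0) of every remote peak nearest to the 10 genes with the most such peaks, by distance from the nearest gene end in kb (x axis, own scale per gene), coloured by whether the 5′ or the 3′ end is the nearest, with Myc in grey because its strand was not given. Irs2, Foxo1 and Gadd45g show several strong peaks beyond the 3′ end, and Nrip1 and Id2 show 1 peak above the rest.

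The gene lists describe which kinds of genes bordered remote peaks. Their members were chosen with earlier results of these data known, so the shares describe the lists and are no test of them. Every list but the core clock lay above the 27.3% of all genes beside such a gap or at a chromosome end. Insulin, growth hormone and glucagon signalling genes were nearest to a remote peak at 10 of the 11 members beside a gap of more than 100 kb (90.9%). They took 70 peaks with a median fold of 10.1, beside 7.54 over all remote peaks. Pik3r1 (23), Irs2 (17) and Foxo1 (13) held most of the 70, so the median largely describes those 3 genes. After Irs2, Foxo1 and Pik3r1 the strongest were at Igfbp2, a binding protein of insulin-like growth factors (29.5), Irs1, another insulin receptor adaptor (26.4), and Ghr, the growth hormone receptor gene (16.3). At the other extreme, the strongest of 3 peaks at the insulin receptor gene Insr had a fold of 8.46. Hepatocyte transcription factors were nearest at 10 of 15 (66.7%). They took 60 peaks with a median of 9.40, led by Tbx3 (39.1), Foxa2, a pioneer factor (27.6), and Onecut1 (25.6).

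Glucose and lipid metabolism genes were nearest at 9 of 12 members (75%, beside 27.3% over all such genes). They took 19 peaks with a median of 8.51, led by Ppp1r3b (29.9), Elovl6, a fatty acid elongase (19.6), and Lipg, endothelial lipase (17.97). Clock output genes were nearest at 4 of 4 (100%), with 10 peaks and a median of 5.81, below the 7.54 of all remote peaks. Nampt, the rate-limiting enzyme of NAD salvage, had 7 peaks with folds of 4.05 to 25.7. Nfil3, a repressor of D-box genes, had 1 of 11.7, and the Krüppel-like factor genes Klf9 and Klf10 had 1 each, of 4.77 and 4.51. Of the core clock 1 of 7 (14.3%) was nearest to a remote peak. That gene was Npas2, a partner of BMAL1, with 34.0 at 90838 bp and 6.76 at 60305 bp.

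Developmental transcription factors, of which 44 of 46 lay beside such a gap, were nearest at 23 of the 44 (52.3%, beside 27.3% over all such genes). They took 98 peaks with a median of 8.11, led by Tshz2 (32.8), Lmo4 (29.5) and Id2 (25.9). Cell adhesion and synapse genes, most known for roles in neurons, were nearest at 15 of 34 (44.1%). They took 26 peaks with a median fold of 5.91, below the 7.54 of all remote peaks. Their strongest were at Cdh20 (26.3), Cdh11 (25.7) and Csmd1 (23.9), and 15.4% of the 26 reached a fold of 10. Immune cytokines and receptors were nearest at 12 of 18 (66.7%), with 30 peaks and a median of 9.29, led by Il12b (152.7) and the chemokine gene Cxcl12 (31.5). Lists differ in the length of the gaps beside their genes, and the part of gap length in these counts was not tested.

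Although no protein-coding gene was near, many remote peaks lay in non-coding genes. The summit of 738 (25.3%, interval 23.7 to 26.9) fell inside the span of a long non-coding RNA gene, and such spans covered 11.4% of the remote territory. Among intergenic peaks within 50 kb the share was 16.8%. How much of their sequence such spans covered was not computed, so these shares are not matched for coverage. Remote summits inside these spans had a median fold of 7.98 and those outside 7.41. A remote peak covered a start window of a non-coding gene at 181 places (6.20% of remote peaks). Of 2719 remote non-coding genes with a start window, 189 (6.95%) had a ZT10 peak over it, and of 16457 protein-coding genes 6701 (40.7%) had one. Of 6625 other non-coding genes, 1326 had one. The median of the strongest fold at such windows was 11.4 for the remote non-coding and 6.72 for the protein-coding genes. For the other non-coding genes it was 8.14, between these values. Width went with fold in this list, and the part of peak width in these medians was not tested.

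An annotated non-coding gene lay within 50 kb of 2350 remote peaks, or over their summit, and 571 remote peaks were more than 50 kb from an annotated gene of any kind. The 2350 had a median fold of 7.68 and the 571 had 7.13. A fold of at least 10 was reached by 36.4% of the 2350 (interval 34.5 to 38.4) and by 27.7% of the 571 (interval 24.0 to 31.5), beside the 27.2% over all ZT10 peaks. The higher share of strong peaks was seen where a non-coding gene was annotated nearby, and the share among the 571 was close to that of the list as a whole. The groups were not matched for distance from protein-coding genes, along which fold also fell, and the part of distance in this difference was not tested.

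Of 135 miRNA hairpins in remote sequence, 9 (6.67%) had a remote summit within 10 kb. The same share over other remote positions was not computed, so the count is no sign of a preference for miRNA genes. The liver-expressed Mir802 had a summit of fold 7.18 at 1387 bp from its hairpin, and Mir101a had 3 summits within reach, the nearest at 3152 bp with a fold of 8.10 and the strongest with 13.4. Their RefSeq mature sequences are given to identify them, with the seed, bases 2 to 8, in capitals.
mmu-miR-101a-3p: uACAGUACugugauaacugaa
mmu-miR-101a-5p: uCAGUUAUcacagugcugaugc
mmu-miR-802-5p: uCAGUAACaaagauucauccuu
mmu-miR-802-3p: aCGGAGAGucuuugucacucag
The 4 seeds differ, so the arms fall into no shared seed group. The others were Mir6348 (strongest fold 14.8), Gm51276 (13.1), Mir1251 (13.1), Mir682 (12.05), Mir3089 (11.6), Mir6372 (6.21) and Mir21c (4.37).

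At ZT22, when the receptor is scarce, the list held 36 peaks, and 6 of them had a remote summit. Each lay over a remote ZT10 peak, so 6 of 2921 remote peaks were overlapped by at least 1 bp (0.205%, interval 0.0754 to 0.447). Among other ZT10 peaks 18 of 24701 were (0.0729%, interval 0.0432 to 0.115), and the share over all was 0.0869%. With a fold of at least 30 at ZT10 the shares were 3 of 50 remote peaks and 14 of 192 others.

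The site near Il12b had a fold of 57.5 at ZT22, the highest of that list, and 152.7 at ZT10, with 1209 fragments at the summit at ZT22 and 3321 at ZT10. A second site in the same gap, near Adra1b, an adrenergic receptor gene, had 6.26 at ZT22 and 20.3 at ZT10. The peak near Cdh17 had 4.41 at ZT22 and 40.02 at ZT10, and that near Zfpm2 had 4.08 at ZT22 and 38.8 at ZT10. Summits at these 4 sites were 0 to 45 bp apart between the times. All 4 had fewer fragments at ZT22, with intervals that did not overlap.

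The other 2 sites looked unlike these. Near Zdhhc25 the peak was 200 bp wide at both times, on chromosome 15 between 88233439 and 88233638, and its fold was 29.8 at ZT22 and 24.3 at ZT10. Its summit held 626 fragments at ZT22 (interval 578 to 677) and 524 at ZT10 (interval 480 to 571), so the count at ZT22 was the higher one and the intervals did not overlap. Near Arid1b a peak of 370 bp at ZT22 and 537 bp at ZT10 had a fold of 5.25 at ZT22 and 15.8 at ZT10, over a local background 3.62 times the lowest at both times. What sets these narrow sites apart was not tested.

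High background touched few remote peaks. It was over 2 times the lowest at 13 (0.445%) and at 63 other peaks (0.255%). The extreme cases were 2 narrow peaks, one of 434 bp near Cr2 with 3378 fragments at its summit and a fold of 4.03, the other of 278 bp near Galc with 2879 fragments and a fold of 4.93. Without the 13, the median fold of remote peaks was 7.54 and 34.8% reached a fold of 10.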

How the data were processed

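Anti-HA ChIP-seq of liver nuclei, fixed with formaldehyde and EGS and made into libraries by Tn5 tagmentation per the labels' protocols, gave 1 deposited peak list for each of ZT22 and ZT10. Each list was called on 4 pooled samples, per the labels; the other 37 of 45 samples were not analysed here. Build mm10 and the tools MACS2 2.1.2, BWA 0.7.17, SAMtools 1.9, Picard 2.18.12, cutadapt 2.3, deepTools 3.3.0 and bcl2fastq 2.17 are listed, without roles, per the submitters' processing notes. Which control was used is not given there.

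The deposited fold is a ratio of summit to local background, the peak's own value. The score of the authors' deposited lists, 10 times the −log10 q without its decimals, was not used. The −log10 p and −log10 q values are also as deposited by the authors; the summit offset in the deposited lists placed each peak. Fragments at a summit and the background were solved from fold and −log10 p, with a pseudocount of 1, and at the lowest background 100% of ZT10 summits came within 0.1 of a whole number. Summits held 82 to 3656 fragments at ZT22 (median 133.5) and 83 to 3378 at ZT10 (median 149). The ZT22 pool had 0.97 of the ZT10 depth, if 1 control served both. The calculation was tested on simulated data.

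Genes came from RefSeq (GRCm38.p6, the coordinates of mm10), strands and sequences from its start windows. Of 8 gene lists, all members but Slitrk2 matched a gene on chromosomes 1 to 19. The members and lists were chosen with earlier results of these data known. Genes were named by a rule: the 25 remote peaks of highest fold, those with a ZT22 overlap, the 5 widest, the 5 farthest, the 5 on either side of 50 kb, the 10 genes nearest to most peaks, the 5 largest clusters and up to 3 genes a list. Not every peak the rule takes is reported here. Gaps, miRNAs, start windows and the 2 peaks of highest background were named after their values were seen. Alternatives varied the limit, the genes used, the overlap and the peak threshold. Python 3.11.15 with numpy 2.4.6, pandas 2.3.3 and scipy 1.17.1 was used.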

Additional observations from a re-analysis of the deposited data

How the results depend on the processing

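No paired analysis was possible because each time has a single list from pooled samples, which also leaves no sample to drop. The planned motif windows around summits were not run, since no genome was used here. Of 96 alternative values 65 stayed within the counting interval of the reported value, or within 1.5 times for counts. Only the difference in median log2 fold could change direction, and it did so in 0 settings.

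A limit of 25 kb gave 15.8% of peaks, 4.23 per Mb, 50.9% with a summit within 12500 bp and 10 with a ZT22 overlap. A limit of 100 kb gave 1713 peaks (6.20%), a log2 difference in median fold of 0.103 (0.158 as reported), 32.6% with a fold of 10, a median width of 1384 bp, 2.51 per Mb and 43.9% with a close summit. Distances to all annotated genes gave 571 peaks (2.07%), a median fold of 7.13, a log2 difference of 0.0666, 27.7% with a fold of 10, a width of 1345 bp, 1.47 per Mb, 34.2% with a close summit and 1 ZT22 overlap. Without model genes the share was 11.1%, and with chromosome X the density was 3.16 per Mb. A −log10 q of at least 10 gave a median fold of 9.15, 44.4% with a fold of 10, a width of 1829 bp, 2.64 per Mb and 41.4% with a close summit. Reaches of 5 and 50 kb gave 21.8% and 75.8%. An overlap of 50% of each peak left 3 ZT22 overlaps. With both flanking genes counted, 4 of the 10 leading genes were shared (Adgrl2, Id2, Myc and Pik3r1). Keeping 1 peak per interval removed 0 peaks, so its values, counted among those that stayed, could not move. Leaving out peaks of high background or of 200 bp, chosen after seeing the data, moved no value past these limits. Summits with under 83 fragments are not in the ZT10 list, so weaker binding was not detectable.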
